A study of Mus musculus with 6 samples.

Results

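The complement system was followed through 9 genes in the mouse hippocampus. They are the chains of C1q (C1qa, C1qb and C1qc), the components C3 and C4b, the receptor genes C3ar1, Itgam and Itgb2, and Serping1, the gene of C1 inhibitor. The genes were taken by symbol, and each symbol matched 1 Ensembl gene of the count table. The table lists 52550 genes, of which 17621 reached 10 counts in 3 or more libraries and were tested, all 9 complement genes among them. The RNA came from the hippocampus of male wild-type C57BL/6 J mice that were injected on both sides into the CA1 area with adeno-associated virus (AAV) at 8 weeks of age. Control mice (3 libraries) received control shRNA, and the mice labelled hnRNPDL-KD (3 libraries) received shRNAs against L-DL, the long isoform of the RNA binding protein hnRNP DL. The shRNAs stood under H1 promoters, and zsGreen under the CamkIIα promoter marked the virus. The control virus had the higher titre of the pair, so the shRNA and the dose of virus cannot be told apart. The labels name the second group a knockdown in 1 field and hnRNP DL-/- in another. Neither the age at RNA collection nor the number of mice behind each library is given in the sources used here.

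Complement is a cascade of blood and tissue proteins that tags targets and calls in phagocytes. C1q recognises a target and starts the classical pathway, which cleaves C4 and then C3. The C3 fragments that stay on the target are bound by complement receptor 3, an integrin made of the Itgam (CD11b) and Itgb2 (CD18) chains. The small fragment C3a acts on the receptor encoded by C3ar1, and C1 inhibitor blocks the proteases of the C1 complex. In the brain, microglia are known as the main source of C1q and carry both receptors, whereas astrocytes and other cells can make C3 and C4. The pathway is known for tagging synapses that microglia remove during development and in models of neurodegeneration.

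Reads counted on genes ranged from 16052529 to 17913064 per library. Levels are given as CPM, the counts of a gene scaled to the size of its library by the TMM method of edgeR, and calls rest on edgeR's quasi-likelihood test with a Benjamini-Hochberg adjusted p under 0.05 over all tested genes. The targeted gene Hnrnpdl had 2862, 3120 and 2689 counts in the controls and 3939, 2680 and 2904 counts in the libraries labelled hnRNPDL-KD. Its log2 fold change was 0.03 (SE 0.12, edgeR adjusted p = 0.898), so no fall of its total count was detectable, and that count does not measure L-DL apart from other transcripts. The group is therefore called the libraries labelled hnRNPDL-KD throughout. Markers of several cell types differed between the groups: all 12 microglial markers were higher, 9 of 10 neuronal markers were lower and all 6 markers of meningeal and vascular fibroblasts were higher. Choroid plexus transcripts varied widely within both groups, with a summed level from 438 to 4629 CPM in the controls and from 31.8 to 5199 CPM in the libraries labelled hnRNPDL-KD.

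All 9 complement genes were higher in the libraries labelled hnRNPDL-KD, and all 9 passed the test. Over all tested genes, 15.6% were called higher and 15% lower. The groups did not overlap for any of the 9 genes, which held in this direction for 23.8% of all tested genes. The median log2 fold change of the 9 genes was 0.93, against 0.01 over all tested genes, and single genes ranged from 0.57 for C3 to 1.58 for Itgam. In hippocampal tissue, more cells of a type and more RNA per cell cannot be told apart.

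**Figure D1:**
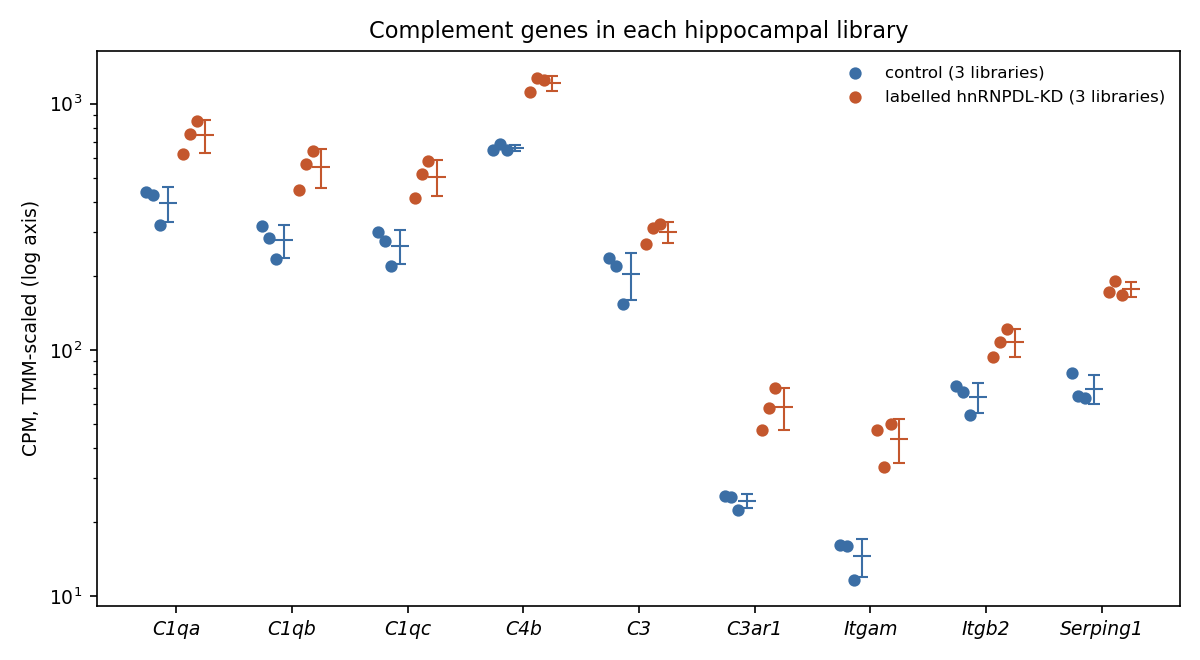
CPM of the 9 complement genes in each library on a log axis, with points for the libraries and a dash with bars for the mean ± SD of 3 libraries per group. For every gene the 3 libraries labelled hnRNPDL-KD lie above the 3 controls; on this scale the gap is narrowest for C3, where the highest control had 236 CPM and the lowest library labelled hnRNPDL-KD had 269 CPM.

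The C1q chains are encoded side by side on chromosome 4 of GRCm38, within 18675 bases and on the minus strand. C1qb lies at chr4:136880129-136886187, C1qc at chr4:136889804-136893065 and C1qa at chr4:136895917-136898803, with 3616 bases between C1qb and C1qc and 2851 bases between C1qc and C1qa. None of their exon bases is shared with another annotated gene. RefSeq start sites with a sequence in the table used here exist for 5 of the 9 genes, and 4 of these windows are printed, those of the adjacent C1qb and C1qc genes, of Itgam, which changed most, and of C3, which changed least. Each window holds 250 bases before and 50 bases after the start on the gene's strand (GRCm38.p6), at chr4:136886151-136886450 for C1qb, chr4:136892865-136893164 for C1qc, chr7:128062390-128062689 for Itgam and chr17:57228087-57228386 for C3. Capitals mark matches, on either strand, to AGGAAG, the core bound by PU.1, and to TGCTGA, the core bound by MAF proteins; matches to the minus strand read CTTCCT and TCAGCA.
C1qb: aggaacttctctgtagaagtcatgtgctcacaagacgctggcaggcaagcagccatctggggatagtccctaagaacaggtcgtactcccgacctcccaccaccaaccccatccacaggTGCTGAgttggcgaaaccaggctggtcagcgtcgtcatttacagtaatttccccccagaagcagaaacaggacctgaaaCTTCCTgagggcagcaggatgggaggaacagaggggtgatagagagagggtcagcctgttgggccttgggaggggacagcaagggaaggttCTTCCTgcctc
C1qc: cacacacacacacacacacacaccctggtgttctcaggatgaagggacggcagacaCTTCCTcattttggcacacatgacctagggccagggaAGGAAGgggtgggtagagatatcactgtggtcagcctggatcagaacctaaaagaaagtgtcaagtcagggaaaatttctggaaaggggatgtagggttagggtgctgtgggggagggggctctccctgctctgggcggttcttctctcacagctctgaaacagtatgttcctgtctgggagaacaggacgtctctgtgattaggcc
Itgam: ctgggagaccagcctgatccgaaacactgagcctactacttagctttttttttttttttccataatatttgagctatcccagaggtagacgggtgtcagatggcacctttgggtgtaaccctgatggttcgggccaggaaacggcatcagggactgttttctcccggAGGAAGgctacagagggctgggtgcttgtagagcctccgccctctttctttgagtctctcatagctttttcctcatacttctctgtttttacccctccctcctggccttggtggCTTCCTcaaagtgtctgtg
C3: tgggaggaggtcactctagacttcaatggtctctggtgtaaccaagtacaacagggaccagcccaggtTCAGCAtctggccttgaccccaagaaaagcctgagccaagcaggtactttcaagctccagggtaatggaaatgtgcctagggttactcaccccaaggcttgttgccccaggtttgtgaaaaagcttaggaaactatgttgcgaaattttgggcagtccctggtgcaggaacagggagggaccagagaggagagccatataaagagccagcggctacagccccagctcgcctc

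AGGAAG was found 2 times in the C1qb window, 2 times in that of C1qc and 2 times in that of Itgam, and not in that of C3. The C1qb window held 1 match to TGCTGA and the C3 window 1. In the window of C3ar1, which is not printed, AGGAAG and TGCTGA occurred 1 time each. Of 32851 promoter windows of the same length, 35.4% hold AGGAAG and 19.5% hold TGCTGA on either strand, so both are common. The interferon response pattern (GAAA, 2 free bases and GAAA, in 3.44% of all windows) and the STAT pattern (TTC, 3 free bases and GAA, in 8.30%) had no match in the 5 windows. No match overlapped another.

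C1qa, which encodes the A chain of C1q, had 437, 425 and 321 CPM in the controls and 628, 754 and 854 CPM in the libraries labelled hnRNPDL-KD. All libraries labelled hnRNPDL-KD lay above all controls, and control replicate 3 was the lowest of the 6. The mean rose from 394 ± 63.9 to 745 ± 113 CPM (SD, n = 3 each), a log2 fold change of 0.92 (SE 0.147, edgeR adjusted p = 0.00291). C1qb, the gene of the B chain, had 318, 286 and 233 CPM in the controls and 448, 571 and 643 CPM in the other group. The order of the 6 libraries was the same as for C1qa, with the lowest control again in replicate 3. Its log2 fold change was 0.99 (SE 0.154, edgeR adjusted p = 0.00255). C1qc, the gene of the C chain, had 300.1, 277 and 219 CPM in the controls and 415, 517 and 584 CPM in the libraries labelled hnRNPDL-KD. Here too replicate 3 was the lowest control and replicate 1 the lowest library of the other group. The log2 fold change of C1qc was 0.93 (SE 0.151, edgeR adjusted p = 0.00307).

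The proportions of the chains, which a C1q molecule holds in equal number, varied little. The C1qa to C1qc count ratio was between 1.46 and 1.54 in every library. The C1qa to C1qb ratio was 1.37, 1.49 and 1.38 in the controls and 1.40, 1.32 and 1.33 in the libraries labelled hnRNPDL-KD. For C1qb to C1qc the log2 ratio was 0.08, 0.04 and 0.09 in the controls and 0.11, 0.14 and 0.14 in the libraries labelled hnRNPDL-KD, so that these groups did not overlap. Its difference was 0.06, with p = 0.1 in a two-sided exact permutation test, the smallest p that 3 against 3 libraries can give. The same exact permutation test gave p = 0.3 for C1qa to C1qb and p = 0.7 for C1qa to C1qc.

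C4b (chr17:34728380-34743882, minus strand) encodes C4, which is cleaved after C1q has bound. The controls had 650.2, 685 and 650.0 CPM, and the libraries labelled hnRNPDL-KD had 1117, 1273 and 1248 CPM. Replicates of both groups lay close together with a wide gap between the groups, and C4b had the smallest SE of the 9 genes. Its log2 fold change was 0.87 (SE 0.0765, edgeR adjusted p = 2.61e-04). C4b has a near copy, C4a, and 16.5% of all 100-base windows of the C4b transcript occur in C4a without a mismatch. The reads were longer than these windows and came in pairs, and the share of reads that could belong to either gene was not measured. C4a was listed at 8.07, 7.65 and 8.38 CPM in the controls and 4.90, 6.06 and 6.44 CPM in the libraries labelled hnRNPDL-KD. Its level lay far below that of C4b in every library, and its log2 fold change of -0.47 did not pass the test (SE 0.166, edgeR adjusted p = 0.0643).

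C3 (chr17:57203970-57228136, minus strand), the component on which all pathways of complement meet, had 236, 220.0 and 154 CPM in the controls. The libraries labelled hnRNPDL-KD had 269, 311 and 324 CPM. Control replicate 3 was low, and the ratio between the nearest libraries of the groups was the smallest among the 9 genes. C3 had a log2 fold change of 0.57 (SE 0.154, edgeR adjusted p = 0.0261). The call for C3 was lost when 1 of 3 libraries was left out: edgeR's adjusted p was 0.0539 without control replicate 2, 0.0717 without hnRNPDL-KD replicate 2 and 0.0661 without hnRNPDL-KD replicate 3. The log2 fold change stayed between 0.40 and 0.69 with each library left out in turn, and at 0.40 control replicate 3 was the library left out.

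C3ar1 (chr6:122847138-122856161, minus strand) encodes the receptor for C3a, found on microglia and other myeloid cells. It had 25.4, 25.1 and 22.4 CPM in the controls and 47.3, 58.1 and 70.3 CPM in the libraries labelled hnRNPDL-KD. The controls lay close together, while the other group was spread more widely. C3ar1 had a log2 fold change of 1.27 (SE 0.144, edgeR adjusted p = 6.76e-04).

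Itgam (chr7:128062640-128118491, plus strand), the gene of the CD11b chain of complement receptor 3, had the largest change of the 9 genes. The controls had 16.1, 15.9 and 11.6 CPM, and the libraries labelled hnRNPDL-KD had 47.3, 33.5 and 49.8 CPM. Even the lowest of the latter, replicate 2, was above every control. Its log2 fold change was 1.58 (SE 0.186, edgeR adjusted p = 7.99e-04). Itgam had 182 to 858 counts per library, the fewest of the 9 genes. Of its exon bases, 68.7% are also annotated on the same strand as exons of the read-through gene Gm49368, which had 0 counts in all 6 libraries. The remaining 1574 exon bases belong to Itgam alone, and how the authors' counting treated reads in shared bases is not given in the sources used here.

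Itgb2 (chr10:77530252-77565708, plus strand) encodes CD18, which pairs with CD11b and with the other chains of its integrin family. It had 71.6, 67.6 and 54.5 CPM in the controls and 93.3, 107 and 122 CPM in the libraries labelled hnRNPDL-KD. As for the C1q chains, the lowest control was replicate 3 and the lowest library of the other group was replicate 1. The log2 fold change of Itgb2 was 0.74 (SE 0.129, edgeR adjusted p = 0.00428), below that of its partner chain Itgam.

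Serping1 (chr2:84765387-84775444, minus strand), the inhibitor of the pathway's first proteases, had 80.2, 64.8 and 63.6 CPM in the controls. The libraries labelled hnRNPDL-KD had 172, 191 and 167 CPM, with a wide gap between the groups. Its log2 fold change was 1.35 (SE 0.106, edgeR adjusted p = 1.92e-04), a 2.54-fold difference. Both the classical pathway's recognition chains and its inhibitor were thus higher in the same libraries.

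Among all 17621 tested genes, Itgam ranked 298 by log2 fold change, Serping1 ranked 444 and C3ar1 ranked 522. The C1q chains ranked between 1011 and 1192, C4b ranked 1298, Itgb2 ranked 1694 and C3 ranked 2502.

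Levels were compared between genes as CPM per kilobase of annotated exon, since longer transcripts collect more reads. In the controls the order was C1qa (379 CPM per kilobase), C1qb (256), C1qc (137), C4b (116), C3 (39.6), Serping1 (29.9), Itgb2 (21.1), C3ar1 (5.65) and Itgam (2.89). C1qc and C4b overlapped in the controls, at 113 to 155 against 114 to 120 CPM per kilobase, as did C3 and Serping1, at 29.9 to 46.0 against 27.3 to 34.5 CPM per kilobase. In the libraries labelled hnRNPDL-KD, C1qa had a mean of 717, C1qb of 509, C1qc of 262 and C4b of 213 CPM per kilobase, again with an overlap between C1qc and C4b. Serping1 stood above C3 there, at 71.8 to 82.2 against 52.2 to 63.0 CPM per kilobase, without overlap. The level of Itgam per kilobase rests on exons that are mostly shared with Gm49368.

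The other genes of the system were listed by role, and 36 of 55 had enough counts to be tested. Of these, 11 were called higher and 1 lower in the libraries labelled hnRNPDL-KD, with a median log2 fold change of 0.25 over the 36. Over all tested genes 15.6% were called higher and 15% lower. The same shares stand beside the counts by role, of cytokines and of transcription factors below. The groups lay apart for 14 of the 36 in the higher and for 3 in the lower direction, which 23.8% and 23.4% of all tested genes did. The 19 genes not tested had at most 18 counts in any library and included C6, C7, C8a, C8b and C9 of the membrane attack complex, the alternative pathway genes Cfb and Cfd, and Mbl1 and Mbl2, which were at 0 counts in all 6 libraries. A count of 0 allows a level of up to 0.191 CPM in the shallowest library, counting error only.

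None of the 5 tested genes among the proteases that act with C1q, C2 and C4a was called. C1ra, a protease of the C1 complex, had 18.2, 13.1 and 12.3 CPM in the controls and 14.99, 11.1 and 14.3 CPM in the libraries labelled hnRNPDL-KD (log2 fold change -0.11, SE 0.189, edgeR adjusted p = 0.693). C1s1, the other protease of the complex, had a log2 fold change of -0.06 (SE 0.198, edgeR adjusted p = 0.849). The groups overlapped for both genes, in contrast to each C1q chain. In mouse, C1ra has a copy, C1rb, and 34.5% of 100-base windows of C1ra occur in it.

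In the lectin pathway 2 of 4 tested genes were higher. Masp1, the gene of a protease of mannose-binding lectin complexes, had 8.88, 8.18 and 8.06 CPM in the controls and 16.8, 16.4 and 17.2 CPM in the libraries labelled hnRNPDL-KD. Its groups were tight and far apart, with a log2 fold change of 1.004 (SE 0.117, edgeR adjusted p = 7.52e-04). Colec12, a scavenger receptor with a collectin domain, had a log2 fold change of 1.03 (SE 0.226, edgeR adjusted p = 0.0110). Masp2 (-0.17) and Colec11 (0.53) did not pass the test. Cfp, which encodes properdin and was the tested gene of the alternative pathway, had a log2 fold change of -0.36 and did not pass (edgeR adjusted p = 0.139). Neither of the tested genes of the terminal pathway, C8g (-0.11) and Hc (0.39), the gene of C5, passed.

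Of the other receptors, 3 of 8 tested genes were higher. C5ar1, the receptor of the C5 fragment C5a, had 4.44, 5.88 and 3.24 CPM in the controls and 13.2, 16.9 and 23.6 CPM in the libraries labelled hnRNPDL-KD. Its log2 fold change of 1.98 was above that of each of the 9 genes (SE 0.277, edgeR adjusted p = 0.00158). Itgax (CD11c), which forms complement receptor 4 with Itgb2, had 28.3, 33.7 and 20.1 CPM in the controls and 47.2, 74.2 and 70.3 CPM in the libraries labelled hnRNPDL-KD (log2 fold change 1.22, SE 0.219, edgeR adjusted p = 0.00471). Itgam and Itgax, both partners of Itgb2, thus rose. Itgad, another partner of Itgb2, was at 0.0551 to 0.698 CPM and did not pass. Cd93, once named as a C1q receptor, had a log2 fold change of 0.88 (SE 0.264, edgeR adjusted p = 0.0367), a call that was lost without control replicate 2 or 3 and without hnRNPDL-KD replicate 2 or 3, at edgeR adjusted p values of up to 0.109. Calr and C1qbp, proteins that bind C1q, had log2 fold changes of -0.11 and 0.22 and did not pass.

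Of the soluble regulators, Vtn, the gene of vitronectin, was higher with a log2 fold change of 0.74 and Clu, the gene of clusterin, with 0.28. Vtn also stands in the list of pericyte markers. Of 5 tested membrane regulators, only Cr1l passed, with a log2 fold change of 0.35, and Cd46 (0.42, edgeR adjusted p = 0.0774) and Cd59a (-0.23) did not.

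Among 8 neuronal proteins with CUB and sushi domains, which are known or proposed to restrain complement at synapses, 2 were higher and 1 was lower. Sez6l had 410, 359 and 366 CPM in the controls and 203, 160 and 153 CPM in the libraries labelled hnRNPDL-KD. It was the 1 gene of the system called lower, with a log2 fold change of -1.13 (SE 0.115, edgeR adjusted p = 4.31e-04). Its relatives Sez6 (-0.04) and Sez6l2 (0.07) had overlapping groups and did not pass. Csmd2 (log2 fold change 0.56) and Susd4 (0.45) were higher.

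Among cytokines known to act on complement genes, Il1a, Il1b and Tnf were low in these libraries, at 6.50 CPM or less. Tgfb1 stood higher, with 21.0, 27.8 and 13.8 CPM in the controls and 35.7, 35.7 and 40.05 CPM in the libraries labelled hnRNPDL-KD. Il1b had 1.73, 0.471 and 0.445 CPM in the controls and 2.75, 2.80 and 6.50 CPM in the libraries labelled hnRNPDL-KD (log2 fold change 2.18, SE 0.585, edgeR adjusted p = 0.0244). Il1a (0.88) and Tgfb1 (0.83) were also higher, which made 3 of 4 tested cytokines. Tnf was at 0.571 to 2.16 CPM and did not pass (log2 fold change -0.13). Each of these 3 calls was lost in fits with 1 library left out, at edgeR adjusted p values of up to 0.104 for Il1a (without control replicate 3), 0.0872 for Il1b (without control replicate 3) and 0.0757 for Tgfb1 (without control replicate 1). Il1a was also not called without each other library but hnRNPDL-KD replicate 1, Il1b without control replicate 2 or hnRNPDL-KD replicate 3, and Tgfb1 without hnRNPDL-KD replicate 2 or 3.

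Among 10 transcription factors of myeloid cells, interferon and inflammatory signalling, 6 were higher and none was lower. Spi1, the gene of PU.1, had 23.7, 22.7 and 14.9 CPM in the controls and 44.0, 44.7 and 53.0 CPM in the libraries labelled hnRNPDL-KD (log2 fold change 1.21, SE 0.173, edgeR adjusted p = 0.00177). Irf8 (1.01), Runx1 (0.97), Rela (0.58) and Nfkb1 (0.45) were also higher, and Runx1 was not called without control replicate 1 or 3 (edgeR adjusted p = 0.0617 and 0.0601). Stat3 (0.12), which carries interleukin signals, did not pass.

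Microglial markers moved in the same direction as the complement genes. The summed level of the 12 markers was 766 to 911 CPM in the controls and 1792 to 2166 CPM in the libraries labelled hnRNPDL-KD, and no marker was at 0. Among them, Csf1r had a log2 fold change of 1.34, Cx3cr1 of 1.53, Tmem119 of 0.60 and P2ry12 of 0.57. The log2 CPM of each complement gene was therefore also taken relative to the mean log2(CPM + 1) of the 12 markers in the same library, which was 1.18 higher in the libraries labelled hnRNPDL-KD. On this scale the level of C3 was 2.21, 1.99 and 1.71 in the controls and 1.38, 1.37 and 1.36 in the libraries labelled hnRNPDL-KD, and the groups did not overlap. C4b was at 3.67, 3.63 and 3.78 against 3.44, 3.40 and 3.31, Itgb2 at 0.49, 0.28 and 0.21 against -0.14, -0.17 and -0.05, and C1qa at 3.10, 2.94 and 2.77 against 2.61, 2.64 and 2.76, all without overlap. For these 4 genes the two-sided exact permutation test gave p = 0.1, the smallest p possible here. After Benjamini-Hochberg adjustment of the exact permutation test over the 9 genes, p was 0.225 for each of the 4. The sizes depended on the markers. Relative to 5 defining markers of the list, the difference was -0.11 for C1qa in place of -0.26, with overlapping groups (exact permutation p = 0.5), -0.16 for C4b in place of -0.31 and -0.30 for Itgb2 in place of -0.45, both still without overlap, and -0.45 for C3 in place of -0.60.

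For the other 5 genes the groups overlapped on the scale relative to the markers. The differences were -0.20 for C1qb, -0.26 for C1qc, 0.07 for C3ar1, 0.40 for Itgam and 0.17 for Serping1 (exact permutation p = 0.2, 0.2, 0.6, 0.3 and 0.4). Relative to the 5 defining markers they were -0.05 for C1qb, -0.105 for C1qc, 0.22 for C3ar1, 0.55 for Itgam and 0.32 for Serping1, again with overlap. Relative to the log2 of the summed marker CPM, C1qb (-0.28) and C1qc (-0.33) did not overlap between the groups.

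**Figure D2:**
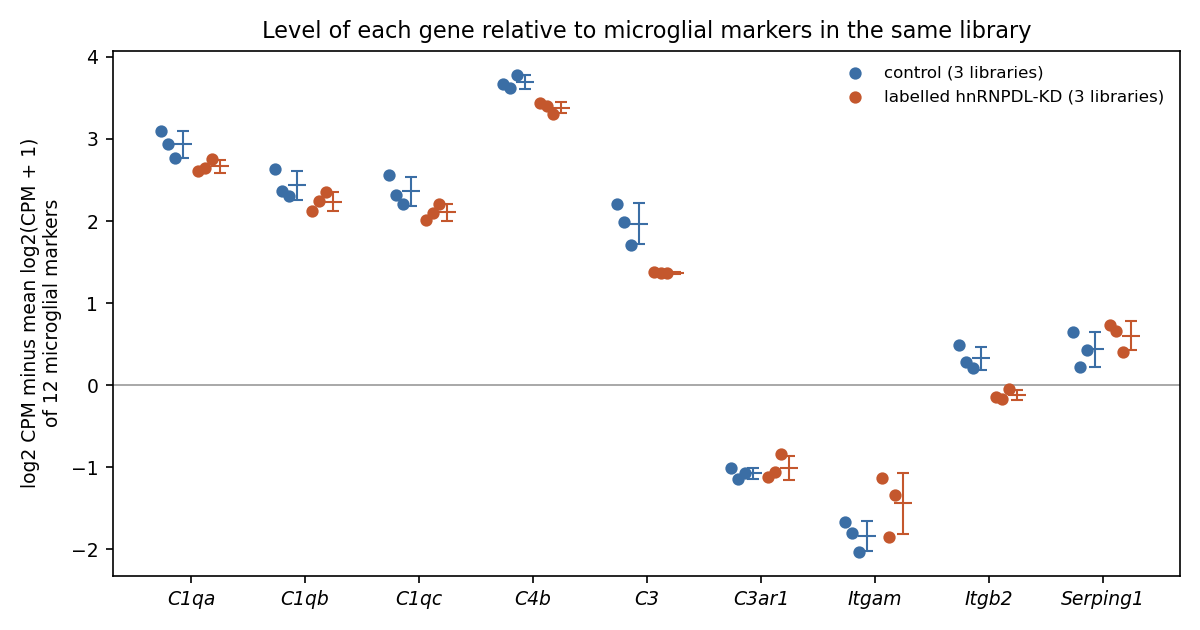
Log2 CPM of each complement gene minus the mean log2(CPM + 1) of 12 microglial markers in the same library, with points for the libraries and a dash with bars for the mean ± SD of 3 libraries per group. On this scale the libraries labelled hnRNPDL-KD lie below all controls for C1qa, C4b, C3 and Itgb2, and the groups overlap for the other 5 genes.

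Markers of further cell types that could hold complement transcripts were read beside these results. Of 5 border macrophage markers 4 were tested and 2 were higher, Mrc1 (log2 fold change 1.43) and Cd163 (1.40), with a summed level of 15.5 to 20.2 CPM in the controls and 22.6 to 67.0 CPM in the libraries labelled hnRNPDL-KD. Of 10 monocyte and neutrophil markers 6 were tested and only Fn1 was higher. The 10 markers summed to 149 to 161 CPM in the controls and 249 to 345 CPM in the libraries labelled hnRNPDL-KD. Most of each sum was Fn1, at 118 to 129 and 203 to 305 CPM. Elane was at 0 in all libraries, and Ccr2 (0.58) and Ly6c2 (0.47) did not pass. None of 9 T and B cell markers passed, at summed levels of 57.1 to 218 and 131 to 351 CPM, with log2 fold changes of -0.75 for Cd3e, -1.02 for Cd3d, 0.48 for Cd79b and 1.05 for Jchain, which had 25.9 to 184 CPM in the controls and 109 to 315 CPM in the libraries labelled hnRNPDL-KD and more than the other 8 markers together in all libraries but control replicate 1. The 6 fibroblast markers summed to 114 to 146 CPM in the controls and 199 to 326 CPM in the libraries labelled hnRNPDL-KD, with log2 fold changes of 0.90 for Dcn and 1.62 for Lum. Of 6 endothelial markers 4 were higher (260.3 to 284 against 335 to 416 CPM, log2 fold change 1.08 for Cldn5 and 0.61 for Pecam1), and of 5 pericyte markers 3 (204 to 227 against 298 to 392 CPM), among them Pdgfrb (1.01) and not Kcnj8 (0.55). Of 8 astrocyte markers 1, Aqp4 (0.67), was higher and 4, Gja1 (-0.67) among them, were lower (7897 to 8042 against 6143 to 7232 CPM). Of 6 oligodendrocyte markers 1, Mag (0.71), was higher and none was lower, at summed levels of 7565 to 8082 and 6539.8 to 9558 CPM, with Mbp (0.03), Mog (0.40) and Cnp (0.32) not passing. None of 6 choroid plexus markers passed, Ttr (-0.34) and Folr1 (-0.22) among them. Rbfox3 (-1.35) and Snap25 (-1.01) of the neurons were lower. The 9 markers of hippocampal neurons summed to 1039 to 1081 CPM in the controls and 884 to 1184 CPM in the libraries labelled hnRNPDL-KD, with none at 0. The largest part of the sum was Zbtb20 (0.58), the 1 marker called higher, at 333 to 387 against 412 to 630 CPM. Another 4 were lower, with log2 fold changes from -2.21 to -0.73 for Wfs1, and the median of the 9 was -0.51. Prox1, of the same list, was at 0.29 and did not pass. The part of these cell types in the complement result was not tested. The 7 liver and plasma protein markers together, Alb and Apoa1 among them, reached at most 1.07 CPM in any library, and none could be tested.

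The libraries richest in choroid plexus transcripts were control replicate 3 and hnRNPDL-KD replicate 1, which were also those with the lowest C1q chains in their groups. With both left out, all 9 genes were still called higher. Their log2 fold changes were then 0.90 for C1qa, 1.004 for C1qb, 0.93 for C1qc, 0.91 for C4b, 0.47 for C3, 1.34 for C3ar1, 1.38 for Itgam, 0.72 for Itgb2 and 1.30 for Serping1.

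Among genes outside the list, the 5 whose log2 CPM followed the mean of the C1q chains most closely over the 6 libraries were Plagl2, Psmc2, Ddx54, Ly86 and Akr1b3, with Pearson's r from 0.998 to 0.999. Of these, Ly86, a secreted partner of the myeloid surface protein CD180, had the largest change, from 56.5, 52.4 and 35.9 CPM to 90.5, 114 and 135 CPM (log2 fold change 1.22). The libraries form 2 groups, which adds to r for genes that are higher in the same group, and 1763 tested genes reached 0.90. Of the 9 genes, Itgb2 had an r of 0.999 and Itgam the lowest, 0.930, with the mean of the chains.

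Splicing of these genes was read from junction counts of events listed by rMATS, which gives for each event the reads of the form that includes a segment and of the form that skips it. The columns carry no replicate numbers, and which columns are the libraries labelled hnRNPDL-KD follows from the study's definition of the PSI change and not from a column name. PSI, the share of the inclusion form after division by its effective length, was recomputed for each library. Of 40961 events, 26 were listed under 5 of the 9 genes, 12 of them in C4b, 9 in Itgb2, 3 in Itgam, 1 in C3 and 1 in Serping1. No event was listed for C1qa, C1qb, C1qc or C3ar1. Of the 26, 15 averaged 20 or more counts per library, with 1 or more of each form, and none of these was called by edgeR after adjustment over 18829 tested events. Over all tested events 0.255% were called, and 13.3% had an unadjusted p under 0.05, as did 2 of the 15 here.

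**Figure D3:**
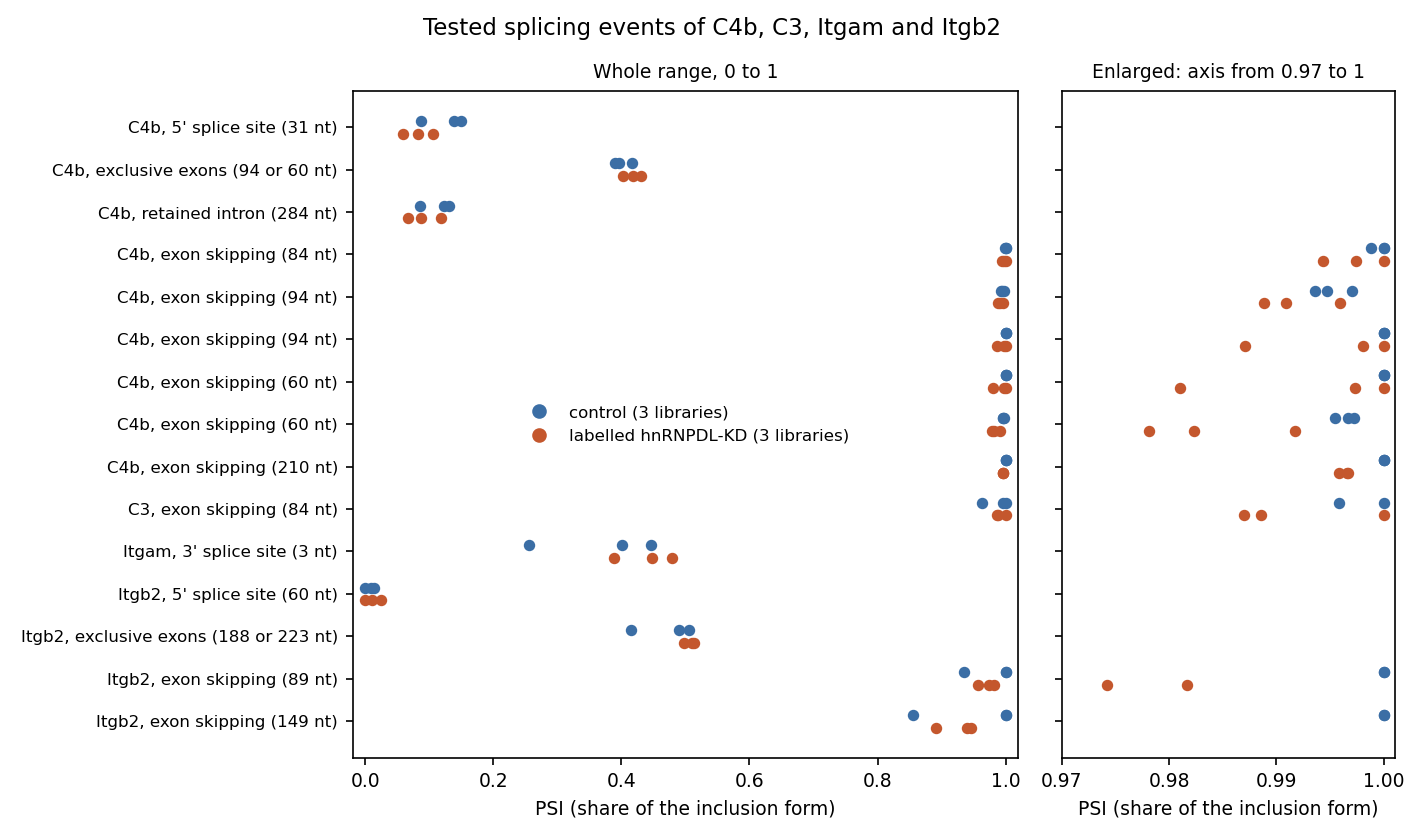
PSI of the 15 tested events (horizontal axis, share of the inclusion form) in each library, with points for control and for libraries labelled hnRNPDL-KD, at the whole range on the left and enlarged from 0.97 to 1 on the right. The nt values are the bases by which the forms differ, and only the 210 nt exon and 1 event of the 60 nt exon of C4b show groups that do not overlap.

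The lower of the 2 unadjusted p values belonged to the skipping of exon 31 of C4b, a coding exon of 60 bases and so a multiple of 3, at chr17:34732170-34732229 (GRCm38, minus strand). Its sequence is printed in capitals because it is the segment with the clearest difference, with 12 bases of the neighbouring exons on each side, from GENCODE.
C4b exon 31: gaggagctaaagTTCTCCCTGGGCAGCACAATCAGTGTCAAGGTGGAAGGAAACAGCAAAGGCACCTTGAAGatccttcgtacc

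PSI of this exon was 0.995, 0.997 and 0.997 in the controls and 0.982, 0.992 and 0.978 in the libraries labelled hnRNPDL-KD. The skipping form had 3, 2 and 2 counts in the controls and 22, 11 and 27 counts in the libraries labelled hnRNPDL-KD, against 837 to 1839 counts of the inclusion form. The groups did not overlap, but the mean PSI differed by only -0.01. The change of the log2 odds of inclusion was -2.11 (SE 0.594, unadjusted p = 0.00394 and adjusted p = 0.161 from edgeR), so the event was not called. The same 60 bases occur without a mismatch in 4 of 10 annotated C4a transcripts. In a further event, which joins the same exon to exon 33 and not to exon 32, PSI was 0.981, 0.997 and 1 in the libraries labelled hnRNPDL-KD and 1 in every control (edgeR adjusted p = 0.512).

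The other event with an unadjusted p under 0.05 was the skipping of exon 24 of C4b (210 bases). The skipping form had 0 counts in every control and 3, 4 and 3 counts in the libraries labelled hnRNPDL-KD, so PSI was 1 in the controls and 0.997, 0.996 and 0.997 in the other group. edgeR gave an unadjusted p of 0.0174 and an adjusted p of 0.284. C4b had more reads in the libraries labelled hnRNPDL-KD, 1738 to 1892 inclusion counts against 859 to 946, and the part of this depth in the difference was not tested. Skipping of exon 39 (84 bases) and of exon 32 (94 bases) had at most 15 counts of the skipping form in any library, with edgeR adjusted p values of 0.513 for exon 39 and 0.660 and 0.488 for the events of exon 32. Retention of the 284-base intron between exons 39 and 40 of C4b was seen at a PSI of 0.085, 0.122 and 0.131 in the controls and 0.066, 0.117 and 0.087 in the libraries labelled hnRNPDL-KD. An alternative 5′ splice site that adds 31 bases to a C4b exon had a PSI of 0.087, 0.149 and 0.138 in the controls and 0.059, 0.083 and 0.105 in the libraries labelled hnRNPDL-KD. The groups overlapped in both, with edgeR adjusted p values of 0.642 and 0.403.

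Itgam had an alternative 3′ splice site that adds 3 bases, 1 codon, to exon 14. The bases are at chr7:128101634-128101636 (GRCm38, plus strand) and are printed in capitals within 12 exon bases on each side, because this was the Itgam event with both forms at high use.
Itgam exon 14: ttgcctcgagggCAGagggcacggtgg

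PSI of the longer form was 0.401, 0.256 and 0.447 in the controls and 0.479, 0.448 and 0.388 in the libraries labelled hnRNPDL-KD. The groups overlapped, and the change of the log2 odds was 0.46 (SE 0.488, edgeR adjusted p = 0.772). The event had 40 to 166 counts per library. Another Itgam event, a skipped exon of 111 bases, carries the identifier of the read-through gene Gm49368 and was nearly always included.

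In Itgb2, skipping of a 149-base exon and of its 89-base form rested on 0 to 7 skipping counts per library, and the groups overlapped. An alternative 5′ splice site that adds 60 bases to the 89-base form had at most 4 counts of the longer form in any library (edgeR adjusted p = 0.976). The exon skipping event of C3 had 0 to 4 skipping counts per library against 165 to 404 inclusion counts, with an edgeR adjusted p of 0.99. A pair of exons of C4b and a pair of Itgb2 were listed as mutually exclusive, with PSI of 0.389 to 0.431 and of 0.415 to 0.514. For the C4b pair the counts of both forms equalled, in all 6 libraries, the inclusion counts of each exon's own skipping event, which had at most 6 skipping counts. In the events that place each of these exons beside the other, exon 32 had 1001 to 2163 inclusion and 2 to 15 skipping counts per library. There exon 31 had 837 to 1839 inclusion and 2 to 27 skipping counts. For the Itgb2 pair the counts of each form equalled the inclusion counts of that exon's own skipping event in 5 of 6 libraries. The largest gaps were 1 and 3 counts, and these skipping events had at most 3 and 1 skipping counts.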

How the data were processed

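Polyadenylated hippocampal RNA was sequenced in paired ends, and the authors aligned the reads to GRCm38 and deposited raw counts per Ensembl gene with 1 column per library. The submitters' processing notes name HISAT2 2.1.0, HTSeq 0.6.1 and Bowtie 1.1.2 without their roles, and the strand setting is not given in the sources used here. The second deposited table holds rMATS junction counts of both forms of each splicing event and the effective lengths of the forms. It also holds the authors' comparisons (PValue, FDR and IncLevelDifference), which were not used. Of 52550 gene identifiers, 52403 matched a symbol.

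Groups were taken from the sample labels. The 9 genes and the lists of other complement genes, cytokines, transcription factors and cell type markers were chosen with earlier results of these data known. The main test was edgeR 4.0.16 (quasi-likelihood, TMM factors, no covariates, R 4.3.3) over genes with 10 or more counts in 3 or more libraries, with Benjamini-Hochberg adjustment. All code for these tests was first tested on simulated counts with known changes. Ratios of C1q chains and levels relative to microglial markers (pseudocount 1 in the marker mean) were compared by two-sided exact permutation over libraries. Events were tested with edgeR on the 2 forms of each library, over events that averaged 20 or more counts with 1 or more of each form. Promoters came from RefSeq and exons from GENCODE vM21, both GRCm38.

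Alternatives were DESeq2 1.42.0, scaling by library size, no filter, 50 counts in place of 10, each library left out, a term for the replicate number, another marker scale, limma 3.58.1 and minimums of 10 and 50 counts for events. One more, without the 2 libraries richest in choroid plexus transcripts, was chosen after seeing the data. Named genes were the 9 genes, Hnrnpdl, listed complement, cytokine and transcription factor genes called with a log2 fold change of 0.5 or more in size, up to 2 genes of each role that were not called and had the highest mean CPM, fixed members of each marker list, and the 5 genes most like the C1q chains. C1rb, C2, C4a, Clu, Cr1l, Elane, Fn1, Gm49368, Itgad, Nfkb1, Susd4, Zbtb20, Mag, Mog, Cnp, Jchain, Cd79b and the complement genes listed as not tested were named after their values were seen. A few genes of the lists are not reported here by name. The sources do not say whether libraries of a group came from separate animals, so p-values measure the spread between these libraries only. Library totals of 16052529 to 17913064 counts set the precision, and counting limits cover counting error only.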

Additional observations from a re-analysis of the deposited data

How the results depend on the processing

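All 9 complement genes kept their direction under every alternative run, and 8 of them stayed called under each. C3 was the exception, with a log2 fold change of 0.40 to 0.69 with 1 library left out and no call without control replicate 2, hnRNPDL-KD replicate 2 or hnRNPDL-KD replicate 3. Replicate numbers did not pair the libraries: deviations of same-numbered libraries correlated at 0.0535, 0.127 and -0.107. With the replicate number as a block, 4635 genes were called against 5379 without it, all 9 complement genes among them. No paired analysis was possible for the splicing events because their columns carry no replicate numbers. Over all genes 3492 to 6520 were called with 1 library left out, 1767 to 3272 higher and 1693 to 3248 lower. The difference of C3ar1 relative to the microglial markers was -0.00817 with the log2 of the summed marker CPM and -0.0139 to 0.126 with 1 library left out, and the C1qa to C1qc log2 ratio differed by -0.0251 to 0.0153. The cause of these shifts was not tested.

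Genes near no difference turned sign. With 1 library left out the log2 fold change was -0.22 to 0.082 for C1ra, -0.19 to 0.072 for C1s1, -0.94 to 1.21 for Hc, -0.98 to 0.39 for Cd59a, -0.11 to 0.087 for Sez6, -0.49 to 0.34 for Tnf, -0.064 to 0.13 for Mbp, -5.23 to 0.76 for Ttr, -4.35 to 0.74 for Folr1 and -0.13 to 0.15 for Hnrnpdl. Without the 2 libraries richest in choroid plexus transcripts it was 0.0264 for C1s1, -0.98 for Hc, 0.0191 for Calr, -0.0675 for Mbp and -0.16 for Hnrnpdl. Calls were lost under at least 1 alternative for 11 of the named genes: C3, Cd93, Il1a (also with the replicate block, edgeR adjusted p = 0.0745), Il1b, Tgfb1, Runx1, Tmem119 (edgeR adjusted p = 0.0503 without control replicate 1), Mrc1 (0.0656 without control replicate 1, and also without control replicate 2 or 3), Cd163 (0.127 without control replicate 3, and also without each other library but hnRNPDL-KD replicate 1, and with the block), Dcn (0.111 without control replicate 2, and also without control replicate 3, hnRNPDL-KD replicate 1 or 3, and both choroid-rich libraries) and Wfs1 (0.105 without control replicate 1, and also without control replicate 2 or hnRNPDL-KD replicate 3). Calls were gained for 6: Prox1, Ly6c2, Cd3e, Kcnj8, Ttr and Folr1.

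Counts over lists shifted by 1 to a few genes. With 1 library left out, called lower were 1 to 2 of the other complement genes (Csmd1 in addition without hnRNPDL-KD replicate 2, log2 fold change -0.42). Called higher were then 8 to 12 other complement genes and 6 to 9 cytokines and transcription factors. In the same fits 4 to 6 fibroblast and 2 to 4 pericyte markers were called higher, and 6 to 9 neuronal markers lower. Ifng made 1 cytokine lower with no filter. With the replicate block, 1 marker of border macrophages, 2 of monocytes and neutrophils, 1 of T and B cells and 2 of hippocampal neurons were higher, and 1 of T and B cells was lower. Without both choroid-rich libraries 2 of monocytes and neutrophils, 1 of T and B cells, 2 of astrocytes and 3 of hippocampal neurons were higher, and 6 of choroid plexus were lower. Markers of hippocampal neurons called higher were 2 with DESeq2, library size scaling, no filter and a minimum of 50 counts. With 1 library left out, higher calls were 0 to 3 for border macrophages, 1 to 2 for monocytes and neutrophils, 0 for T and B cells, 1 to 2 for astrocytes, 1 to 3 for oligodendrocytes and 0 to 3 for hippocampal neurons, and lower calls 0 to 1 for T and B cells, 0 to 1 for oligodendrocytes, 0 to 6 for choroid plexus and 2 to 5 for hippocampal neurons. Over all splicing events limma called 0 and edgeR with 1 library left out 0 to 63, against 48. No event of the 9 genes was called under any alternative. The log2 odds of the 60-base 5′ splice site of Itgb2 changed by -0.34 with limma and by -0.95 to 0.90 with 1 library left out, the C3 exon by -1.77 to 0.83, and the 89- and 149-base Itgb2 exons by -4.75 to 0.071 and -4.70 to 0.0042. Events with few counts of 1 form limit what could be detected.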
